A study of Equus caballus with 3 samples.

Results

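The transcripts described here are those of the 4 inhibitor of differentiation genes, *ID1*, *ID2*, *ID3* and *ID4*, and of 6 further genes of bone morphogenetic protein (BMP) signalling, *SMAD6*, *SMAD7*, *BMP4*, *BMP2*, *GREM1* and *BAMBI*. They were looked up by symbol, and all 10 were found among the 29927 genes listed in at least 1 of the 3 deposited matrices. The genes were chosen by their measured levels in the sources and by how they moved together across cells of these libraries, so their levels, differences and correlations are given as descriptions and not as tests.

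Equine mesenchymal stromal cells (MSCs) had been grown from peripheral blood (PB), from bone marrow (BM) and from adipose tissue (AT) of 1 healthy Warmblood mare, 10 years of age, with no genetic change or agent named for any group, and were captured on a droplet platform after the second passage. Each source was 1 library of 3′ ends counted by unique molecular identifier (UMI), so differences between sources have no replicate check, and source and library cannot be told apart. The sources come from the sample titles, since the deposited source name of all 3 samples is that of mononuclear cells from peripheral blood.

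Cells with 2500 to 15000 UMIs, of which at most 3% were mitochondrial, were kept, which left 5403 AT-, 5580 BM- and 5318 PB-derived MSCs with a median of 7291, 6875 and 7750 UMIs. All 5 MSC markers examined (*ITGB1*, *CD44*, *THY1*, *ENG* and *B2M*) were above 1 CPM in every source, CPM being UMIs of a gene scaled to a common total per source. The summed level of 5 haematopoietic markers was 0.125 to 0.199 CPM, with *PTPRC* at 0 throughout, and that of 7 endothelial markers was 1.30 to 2.29 CPM, with *KDR* at 0 throughout. Smooth muscle and pericyte markers, 7 genes, summed to 322 CPM in AT-, 198 CPM in BM- and 57.3 CPM in PB-derived MSCs. This sum follows *DES* (204 CPM) and *CNN1* (106 CPM) in AT- and *CNN1* (162 CPM) in BM-derived MSCs. Its part in the ID levels was not tested. Barcodes were shared between libraries: each of the 5318 kept PB barcodes was also listed in the AT matrix, and 72 of them were kept in another library as well. Leaving out the barcodes kept in more than 1 library moved no difference between sources of the 10 genes by more than 0.0249 on the log2 scale.

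BMPs are secreted ligands that bind paired receptor kinases at the cell surface, and the receptors then phosphorylate SMAD1, SMAD5 and SMAD9, which enter the nucleus with SMAD4. The ID genes are among the best known targets of this route: their proteins lack a DNA-binding region and hold basic helix-loop-helix (bHLH) factors in inactive pairs, which in mesenchymal cells delays differentiation. The same route also switches on its own brakes, the inhibitory SMADs and the decoy receptor BAMBI, while secreted antagonists such as gremlin catch the ligands outside the cell.

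The 10 genes fell into 3 orders of source. All 4 ID genes were highest in BM-, intermediate in AT- and lowest in PB-derived MSCs. *SMAD6*, *SMAD7*, *BMP4*, *BMP2* and *BAMBI*, 5 genes, were also highest in BM-derived MSCs but lowest in AT-derived MSCs, and only *GREM1* was highest in PB-derived MSCs. BM-derived MSCs thus held the highest level of 9 of the 10 genes. Levels are CPM of the UMIs summed over the kept cells of a source, and the 95% intervals given below (exact Poisson for sums, exact Clopper-Pearson for shares) cover counting error only.

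**Figure D1:**
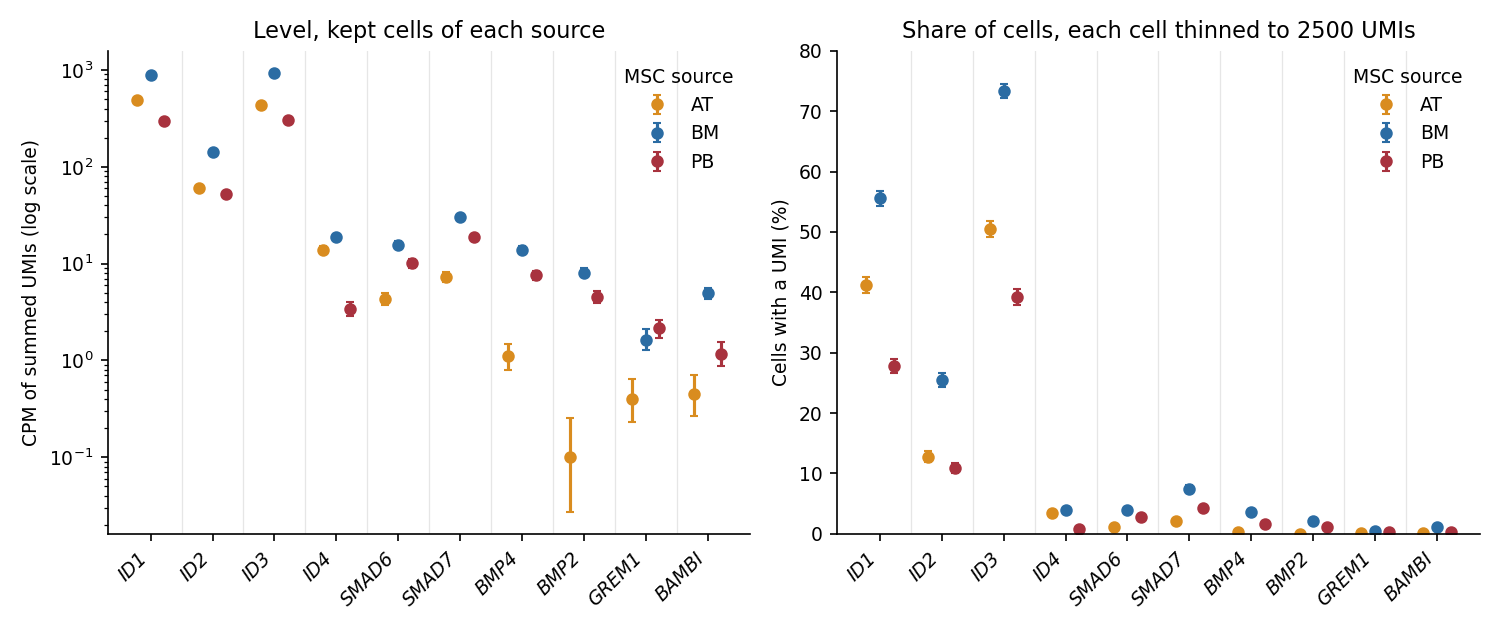
Levels of the 10 genes in AT-, BM- and PB-derived MSCs, as CPM of summed UMIs on a log axis (left), and the percentage of cells with at least 1 UMI after every cell was thinned to 2500 UMIs (right). Points are single libraries and bars are 95% counting intervals; BM-derived MSCs have the highest CPM of every gene but *GREM1*, and *BMP2* in AT-derived MSCs, at 0.10 CPM, is the lowest point.

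*ID1* (chromosome 22, plus strand in the deposited matrices), the ID gene most often used as a readout of BMP signalling, was at 484 CPM in AT-, 893 CPM in BM- and 298 CPM in PB-derived MSCs. The order of the levels was the order of the shares of cells: an *ID1* UMI was found in 69.0% of BM-, in 57.4% of AT- and in 43.6% of PB-derived MSCs, and 55.5%, 41.2% and 27.8% had one after thinning to an equal depth of 2500 UMIs. The level in BM-derived MSCs was 1.84-fold that in AT-derived MSCs (1.81 to 1.88) and 3.00-fold that in PB-derived MSCs (2.94 to 3.06). No cell type that lacks ID transcripts was present in these libraries, so the share that free RNA would give was not tested.

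*ID3* (chromosome 2, plus strand), which shares many targets with *ID1*, was at 432 CPM in AT-, 929 CPM in BM- and 302 CPM in PB-derived MSCs. Its shares had the same order, with a UMI in 88.5% of BM-, in 73.8% of AT- and in 63.5% of PB-derived MSCs. *ID2* (chromosome 15, minus strand), an ID gene also known from lymphoid and neural lineages, was at 60.9, 141 and 52.0 CPM in AT-, BM- and PB-derived MSCs. Its AT and PB levels were neighbours in the order and lay 1.17-fold apart (1.10 to 1.24). *ID4* (chromosome 20, plus strand), an ID gene known from neural progenitors, was at 13.9 CPM in AT-, 18.9 CPM in BM- and 3.44 CPM in PB-derived MSCs. Of the ID genes *ID4* was thus the one closest between AT- and BM-derived MSCs, at 1.36-fold (1.22 to 1.52), and the one furthest below both in PB-derived MSCs, 4.03-fold below AT (3.35 to 4.88) and 5.50-fold below BM (4.59 to 6.62).

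By the ratio of variance to mean, *ID1* was also the most unevenly spread of the 10 genes among the cells of a source. In cells thinned to 2500 UMIs, its variance was 4.04, 4.92 and 3.96 times its mean in AT-, BM- and PB-derived MSCs, where a value of 1 would be counting error alone and a higher mean also raises the ratio. The corresponding ratios were 2.15, 2.65 and 2.10 for *ID3* and 1.28, 1.55 and 1.19 for *ID2*, and those of the other 7 genes lay between 0.989 and 1.09. The tenth of cells with the most *ID1* UMIs held 67.5% of all *ID1* UMIs in PB-, 51.8% in AT- and 44.2% in BM-derived MSCs, and the highest single cell of these sources had 65, 93 and 75 *ID1* UMIs. For *ID2* the share was 61.8% in PB-, 59.1% in AT- and 46.0% in BM-derived MSCs. This share rises by counting alone as the mean falls, whereas the variance to mean ratio rises with the mean. Both the mean and the ratio of *ID1* were lowest in PB-derived MSCs. Because both measures depend on the mean, neither ranks the sources by how unevenly *ID1* was spread beyond counting error.

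The inhibitory SMADs, which bind activated receptors or SMADs and stop the signal, followed the other order. *SMAD6* (chromosome 1, minus strand), the more BMP-selective of the pair, was at 4.33 CPM in AT-, 15.7 CPM in BM- and 10.0 CPM in PB-derived MSCs. *SMAD7* (chromosome 8, minus strand), which also restrains TGF-beta signalling, was at 7.33, 30.3 and 18.9 CPM. The level of *SMAD6* in AT-derived MSCs was 3.63-fold below BM (3.06 to 4.32) and 2.32-fold below PB (1.94 to 2.79), and that of *SMAD7* was 4.14-fold below BM (3.64 to 4.72) and 2.57-fold below PB (2.25 to 2.95). BM-derived MSCs exceeded PB-derived MSCs by less, 1.56-fold for *SMAD6* (1.38 to 1.77) and 1.61-fold for *SMAD7* (1.47 to 1.76).

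Of the 10 genes, the ligands and *BAMBI* had the largest ratios between sources. *BMP4* (chromosome 24, minus strand), a ligand with roles in mesoderm and adipocyte commitment, had 44 UMIs in all AT-derived MSCs, 562 in BM- and 315 in PB-derived MSCs, which is 1.10, 14 and 7.57 CPM. *BMP2* (chromosome 22, minus strand), a ligand known for inducing bone, had 4, 324 and 189 UMIs, which is 0.10, 8.05 and 4.54 CPM. The BM to AT ratio was 12.7 for *BMP4* (9.33 to 17.7) and 80.5 for *BMP2*, whose interval of 31.1 to 297 reflects the 4 UMIs in AT-derived MSCs. PB-derived MSCs exceeded AT-derived MSCs by 6.88-fold for *BMP4* (5.0 to 9.66) and by 45.4-fold for *BMP2* (17.4 to 168). These transcripts were sparse in every source, with a *BMP4* UMI in 8.51% and a *BMP2* UMI in 5.27% of BM-derived MSCs.

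Of the modulators outside and at the membrane, *GREM1* (chromosome 1, plus strand), which codes for the secreted antagonist gremlin, had 89 UMIs in PB-, 66 in BM- and 16 in AT-derived MSCs, which is 2.14, 1.64 and 0.40 CPM. The BM and PB levels could not be told apart at this depth, since the interval of their ratio ran from 0.938 to 1.82, and AT-derived MSCs were below both. On the log2 scale BM minus PB was −0.25 for *GREM1*, and it turned to 0.35 when every cell was thinned to 2500 UMIs. *BAMBI* (chromosome 29, minus strand), which codes for a receptor-like protein without a kinase, was at 4.92 CPM in BM- (198 UMIs), 1.18 CPM in PB- (49 UMIs) and 0.450 CPM in AT-derived MSCs (18 UMIs). Its BM level was 10.9-fold above AT (6.74 to 18.8) and 4.18-fold above PB (3.04 to 5.84).

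For a comparison with all genes, differences were taken as log2(CPM + 1), which understates the change of low genes, and a gene was counted when it passed 2-fold among the 8426 genes with a mean of at least 5 CPM over the 3 sources. Of the 10 genes, 7 reached that mean, and *BMP2* (4.23 CPM), *GREM1* (1.39 CPM) and *BAMBI* (2.18 CPM) did not. *BMP2* lay just outside and *BMP4* (7.55 CPM) just inside this limit. In AT against BM, 5 of the 7 were at least 2-fold lower (*ID2*, *ID3*, *SMAD6*, *SMAD7* and *BMP4*) and 0 were higher, where 7.9% of all genes were lower and 2.03% higher. In AT against PB, *ID4* was higher and *SMAD6*, *SMAD7* and *BMP4* were lower, where 3.55% of all genes were higher and 5.39% lower. In BM against PB, all 4 ID genes were at least 2-fold higher and none of the 7 was lower, where 5.44% of all genes were higher and 1.84% lower. Nothing is read from these counts, because the levels in these sources chose the genes, and each source enters 2 of the 3 comparisons.

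The whole transcriptome was shifted between sources, with a median log2 difference over the 8426 genes of −0.24 for AT minus BM, −0.03 for AT minus PB and 0.20 for BM minus PB. Relative to that median, the AT minus BM difference was −0.64 for *ID1*, −0.96 for *ID2*, −0.86 for *ID3* and −0.18 for *ID4*, and it was −1.41 for *SMAD6*, −1.67 for *SMAD7* and −2.59 for *BMP4*. The BM minus PB difference relative to the median was 1.38 for *ID1*, 1.22 for *ID2*, 1.41 for *ID3* and 1.96 for *ID4*. With TMM factors *ID2* and *ID3* therefore no longer passed 2-fold between AT and BM, and the count fell from 5 to 3 (*SMAD6*, *SMAD7* and *BMP4*). No order of sources of the ID genes turned under TMM factors.

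The ID levels also differed between cells called to different phases of the cell cycle. Cells were assigned to G1, S or G2M from published cell cycle genes, and the G1 share was 67.2% in BM-derived MSCs, 60.2% in PB-derived and 59.2% in AT-derived MSCs. *ID1* in PB-derived MSCs was at 191 CPM in G1, 335 CPM in S and 649 CPM in G2M. In BM-derived MSCs it was at 772, 927 and 1320 CPM, and in AT-derived MSCs at 453, 535 and 525 CPM. These differences were not shared by all cycling cells of a source. In PB-derived MSCs *ID1* in 1 expression cluster of 393 cells was at 1249 CPM and the cells outside it, of every phase, at 193 CPM, and in BM-derived MSCs a cluster with 89.8% of cells in S or G2M was at 592 CPM, below the G1 level. *ID3* in PB-derived MSCs was at 248, 327 and 470 CPM, whereas in AT-derived MSCs it was at 424, 461 and 420 CPM. *ID4* in BM-derived MSCs was at 12.3, 26.7 and 34.2 CPM. Among G1 cells alone, the BM minus PB difference of *ID1* on the log2 scale was 2.01 in place of 1.58, and the AT minus PB difference was 1.24 in place of 0.70. The AT minus BM difference of *ID4* changed from −0.42 to 0.13, and was thus the only ID difference whose direction turned in G1 cells.

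The rest of the pathway was examined through lists of ligands, receptors, antagonists, SMADs and responsive genes, 71 genes of which 70 were in the matrices and 35 reached 5 CPM. In AT against BM, 2 of the 35 were at least 2-fold higher and 11 lower. In AT against PB, 5 were higher and 9 lower, and in BM against PB 8 were higher and 1 lower. These counts, and those of the single lists that follow, stand beside the shares of all genes given above, 2.03% higher and 7.9% lower in AT against BM, 3.55% and 5.39% in AT against PB, and 5.44% and 1.84% in BM against PB. The median log2 difference of the 35 genes was −0.42, −0.09 and 0.48 in these comparisons, beside −0.24, −0.03 and 0.20 over all genes. The 7 genes described above are on these lists and account for 5 of the 11 lower in AT against BM, for 1 of the 5 higher and 3 of the 9 lower in AT against PB, and for 4 of the 8 higher in BM against PB.

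**Figure D2:**
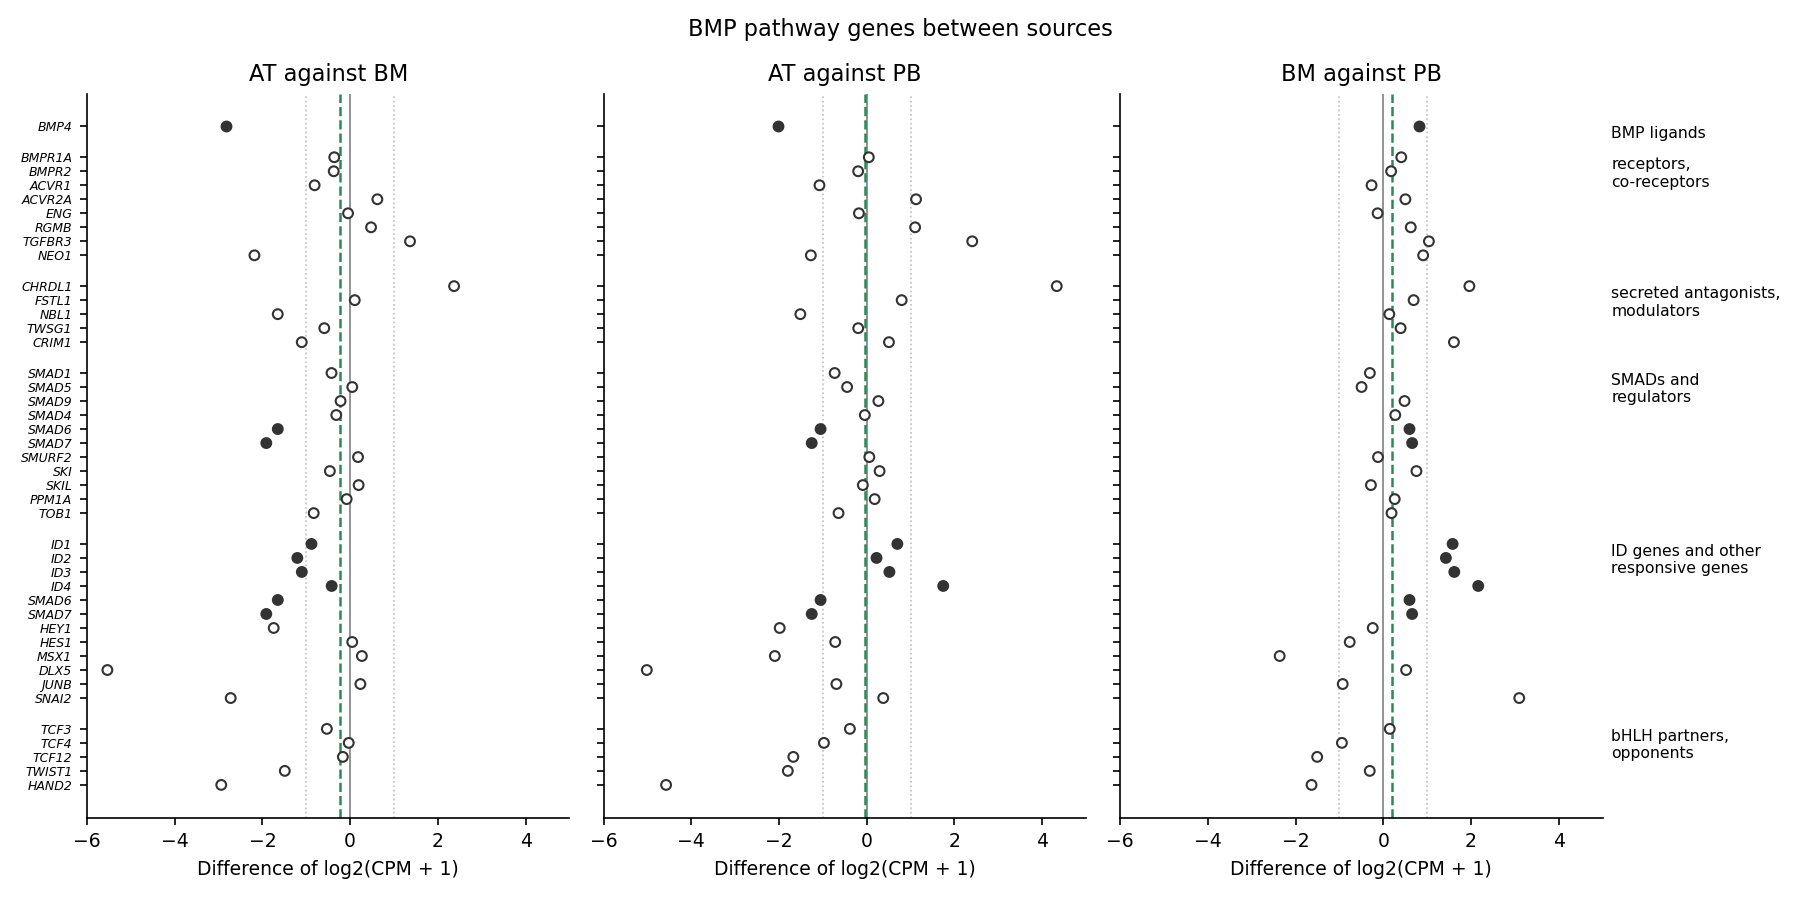
Difference of log2(CPM + 1) between sources for the genes of the BMP lists and of the bHLH list with a mean of at least 5 CPM; filled points are the 7 genes described above and open points other genes, and *SMAD6* and *SMAD7* appear under both of their lists. The dashed line is the median of all 8426 genes (−0.24, −0.03 and 0.20), dotted lines mark 2-fold, and *DLX5* (−5.53 in AT against BM) and *CHRDL1* (4.33 in AT against PB) lie furthest out.

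Among the ligands *BMP4* was the only 1 of 12 measured genes to reach 5 CPM, so that AT-derived MSCs were at or below 1.10 CPM for each BMP or GDF ligand on the list. Both dedicated BMP receptors that reached 5 CPM passed 2-fold in no comparison. *BMPR1A*, a type I receptor, was at 4.90, 6.59 and 4.71 CPM and *BMPR2*, a type II receptor, at 9.63, 12.8 and 11.2 CPM in AT-, BM- and PB-derived MSCs. *ACVR1*, another type I receptor, was at 21.2 CPM in AT-, 38.0 CPM in BM- and 45.9 CPM in PB-derived MSCs, and only the AT to PB difference passed 2-fold. *ACVR2A*, a type II receptor shared with activins, went the other way, at 12.7, 7.88 and 5.26 CPM. Of the co-receptors, *TGFBR3* (betaglycan) was at 20.1, 7.18 and 2.98 CPM, and *RGMB* was at 14.1, 9.82 and 6.01 CPM. *NEO1*, the neogenin gene, whose product binds repulsive guidance molecules, had the order of the inhibitory SMADs, at 5.33, 27.7 and 14.3 CPM. Counted together, 1 of 8 receptor genes was higher and 1 lower in AT against BM, 3 were higher and 2 lower in AT against PB, and 1 was higher and 0 lower in BM against PB.

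The secreted antagonists gave the largest difference in favour of AT-derived MSCs. *CHRDL1*, which codes for a chordin-like protein that binds BMP4, was at 177 CPM in AT-, 33.5 CPM in BM- and 7.86 CPM in PB-derived MSCs, with a UMI in 66.7%, 19.1% and 5.57% of cells. AT-derived MSCs thus combined the highest level of this antagonist with the lowest levels of *BMP4*, *BMP2*, *SMAD6* and *SMAD7*, while their *ID1* and *ID3* levels lay between those of the other sources. *NBL1*, a relative of gremlin, went in the opposite direction, at 16.4, 53.7 and 48.7 CPM. *CRIM1*, a membrane protein that holds BMPs back, was highest in BM-derived MSCs, at 9.88, 22.4 and 6.66 CPM. *NOG*, the noggin gene, was rare, at 1.05, 1.81 and 0.168 CPM.

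The signal-carrying SMADs passed 2-fold in no comparison, the widest difference being that of *SMAD1*, 1.73-fold lower in AT- than in PB-derived MSCs. *SMAD1* was at 9.30, 12.8 and 16.1 CPM, *SMAD5* at 36.0, 34.7 and 49.4 CPM and *SMAD4* at 12.3, 15.5 and 12.7 CPM in AT-, BM- and PB-derived MSCs. Of 11 SMADs and regulators that reached 5 CPM, *SMAD6* and *SMAD7* were the only genes past 2-fold, in AT against BM and in AT against PB, and none passed in BM against PB.

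The responsive genes outside the members did not share 1 order of sources. *HEY1*, a Notch and BMP target, was at 4.05 CPM in AT-, 15.9 CPM in BM- and 19.0 CPM in PB-derived MSCs. *DLX5*, a homeobox gene of the osteogenic line, was at 0.300, 59.2 and 41.0 CPM, close to the order of *BMP2*. *MSX1*, another homeobox gene, was at 17.9, 14.7 and 79.6 CPM, and *SNAI2*, a repressor of epithelial genes, at 7.5, 55.1 and 5.55 CPM. Beside *DLX5*, *BMP2* and *BMP4*, all lowest in AT-derived MSCs but higher in BM- than in PB-derived MSCs, the summed level of 5 osteoblast markers (*ALPL*, *SP7*, *IBSP*, *SPP1* and *IFITM5*) was 16.3 CPM in AT-, 182 CPM in BM- and 406 CPM in PB-derived MSCs, with 2, 5 and 4 of them above 1 CPM, and *IBSP* at 0 in AT-derived MSCs. The sum follows *ALPL*, at 2.88, 96.0 and 326 CPM, while *IBSP* and *SPP1* were higher in BM- than in PB-derived MSCs. Their part in the differences of *BMP2* and *BMP4* was not tested.

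Several bHLH factors, which ID proteins hold or compete with, were highest in PB-derived MSCs, where the ID transcripts were lowest. *TCF12*, an E protein, was at 11.1 CPM in AT-, 12.5 CPM in BM- and 37.5 CPM in PB-derived MSCs. *TWIST1*, a regulator of mesenchymal fate, was at 18.1, 52.6 and 65.4 CPM, and *HAND2*, known from limb and heart mesenchyme, at 0.10, 7.43 and 25.2 CPM. Of 5 such genes that reached 5 CPM, 0 were higher and 2 lower in AT against BM, 0 higher and 3 lower in AT against PB, and 0 higher and 2 lower in BM against PB. Of 4 cell cycle inhibitors that reached 5 CPM, 3 were lowest in AT-derived MSCs. *CDKN1A* was at 34.3, 96.9 and 103 CPM, *CDKN2A* at 7.10, 73.0 and 64.5 CPM and *CDKN2B* at 2.00, 8.72 and 9.99 CPM, whereas *CDKN1C* was lowest in PB-derived MSCs, at 36.1, 66.4 and 22.8 CPM.

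Genes known to respond to TGF-beta were listed beside these. Of 10 that reached 5 CPM, 2 were higher and 1 lower in AT against BM, 1 higher and 2 lower in AT against PB, and 0 higher and 3 lower in BM against PB. *TGFB2*, a ligand of that pathway, was at 0.775 CPM in AT-, 10.5 CPM in BM- and 11.3 CPM in PB-derived MSCs. The genes of this list did not share 1 order of sources. *ACTA2* had the order of the ID genes, at 721, 763 and 613 CPM in AT-, BM- and PB-derived MSCs. *COL1A1* did not, at 6259, 2700 and 6036 CPM.

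Across single cells *ID1*, *ID2* and *ID3* went together in every source. Over cells thinned to 2500 UMIs, the Spearman rank correlation of *ID1* with *ID3* was 0.49 in 5580 BM-, 0.41 in 5403 AT- and 0.31 in 5318 PB-derived MSCs. That of *ID1* with *ID2* was 0.30, 0.22 and 0.17, and that of *ID2* with *ID3* was 0.28, 0.19 and 0.13. Pairs with *ID4*, which had few UMIs, were lower. In the same order of sources, its rho was 0.089, 0.118 and 0.081 with *ID1*. With *ID3* it was 0.069, 0.095 and 0.073, and with *ID2* 0.021, 0.059 and 0.032. These cells share a library and, after thinning, a depth, and they are not replicates of a source. *ID3* had a UMI in 69.4% of AT-derived MSCs with *ID1* and in 37.2% of those without it. The same shares were 85.9% and 57.8% in BM-derived MSCs and 59.1% and 31.7% in PB-derived MSCs.

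**Figure D3:**
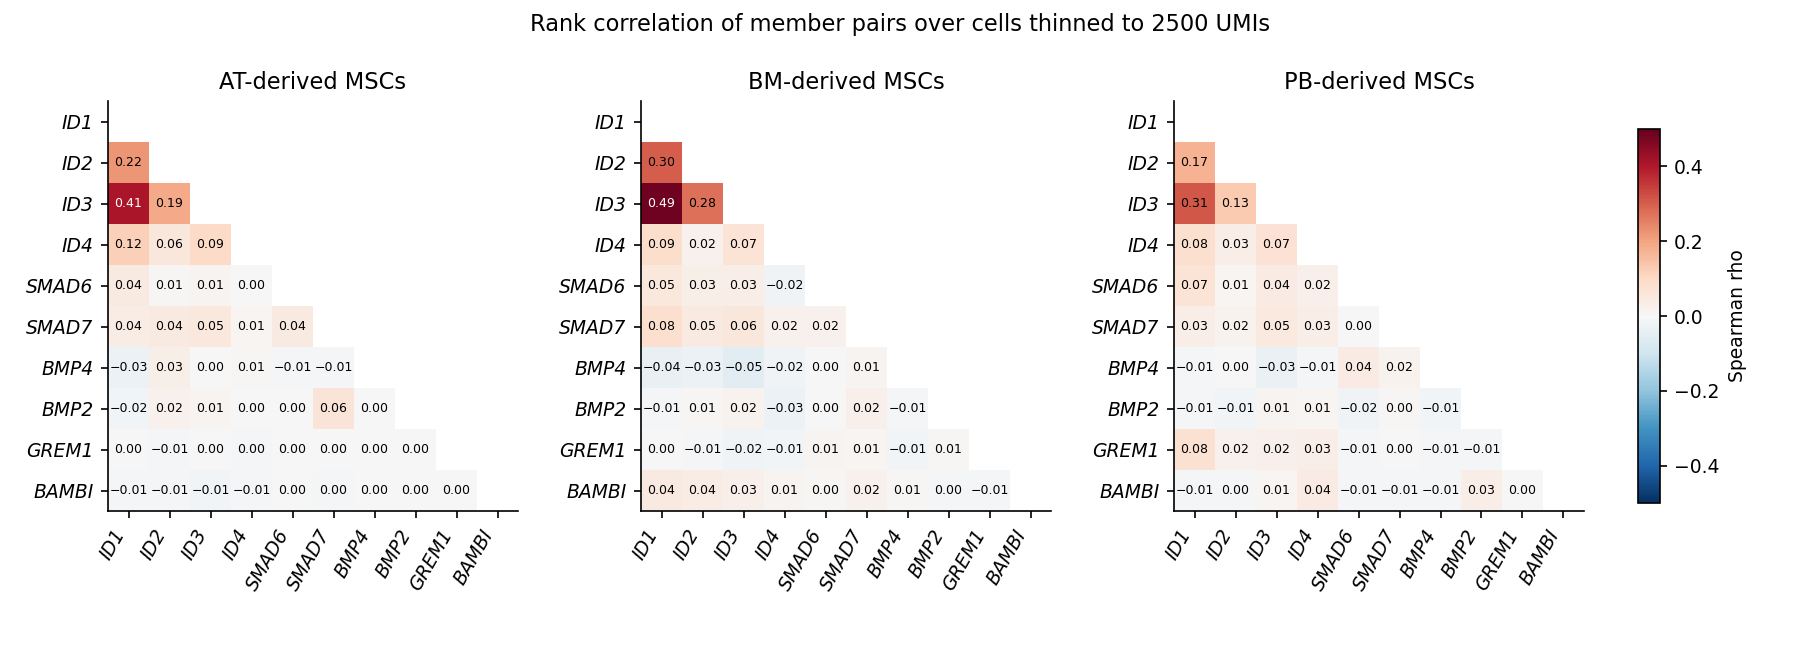
Spearman rho of each of the 45 pairs of genes over the kept cells of AT-, BM- and PB-derived MSCs, each cell thinned to 2500 UMIs; colour runs from −0.5 to 0.5. The 3 pairs among *ID1*, *ID2* and *ID3* stand out in all sources, at 0.13 to 0.49, and pairs without 2 ID genes lie between −0.05 and 0.08.

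On ranks, the pairs outside the ID family were close to 0, as were those of *ID2* with *ID4*. Of 45 pairs, 4 reached 0.1 in AT-derived MSCs and 3 did so in each other source, the fourth pair in AT-derived MSCs being *ID1* with *ID4* (0.118), and no pair reached −0.1. The 39 pairs that are not between ID genes lay between −0.05 and 0.08 in each source. In counts this sparse such values are not a finding for *SMAD6*, *SMAD7*, *BMP4*, *BMP2*, *GREM1* or *BAMBI*. After the counting variance was removed, the *ID1* to *ID3* correlation was 0.67 in BM-derived MSCs, 0.71 in AT-derived and 0.69 in PB-derived MSCs, so that the sources were closer to each other on this scale than on ranks. On the same scale *ID1* with *SMAD7* was at 0.67, 0.61 and 0.42, so low ranks do not separate this pair from the ID pairs. For sparse genes the scale is unsteady, since *SMAD6* with *SMAD7* came to 1.61 in AT-derived MSCs.

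No other gene followed *ID1* more closely than *ID3*. Among genes found in 25% or more of the kept cells, *ID3* had the highest rho with *ID1* of 2641 genes in AT-, of 2928 in BM- and of 2811 in PB-derived MSCs, where the median gene was at 0.004, 0.006 and 0.004. In AT-derived MSCs *ID2*, *LGALS1* (0.16), *S100A10* (0.14) and *TSPO* (0.13) came next, and *ADM* (−0.14), *MYL9* (−0.14), *TPT1* (−0.12), ENSECAG00000008542 (−0.10) and *ACTG2* (−0.10) were lowest. In BM-derived MSCs *ID2* was followed by *SNAI1* (0.21), which codes for the repressor SNAIL, ENSECAG00000037332 (0.17) and *STMN1* (0.17), and the lowest were *COL1A2* (−0.19), *TAGLN* (−0.17), *CYR61* (−0.15), *CST3* (−0.15) and *SPARC* (−0.15). In PB-derived MSCs the proliferation genes *STMN1* (0.18), *H2AFZ* (0.18) and *NME1* (0.18) preceded *ID2*, and *COL1A2* (−0.21), *COL1A1* (−0.21), *RPS6* (−0.16), *RPL9* (−0.16) and *COL3A1* (−0.16) were lowest. When only the 3200 PB-derived MSCs called G1 were used, *ID2* (0.16) was again next to *ID3* (0.25), *NME1* (0.11) was still among the 5 highest, and *STMN1* and *H2AFZ* were not. In the 3750 BM-derived MSCs called G1, *SNAI1* (0.23) and *DLX5* (0.18) followed *ID2*. There *STMN1* and ENSECAG00000037332 left the 5 highest, and *SPARC*, *CST3* and *TAGLN* left the 5 lowest. In AT-derived MSCs called G1 the 5 highest genes stayed the same. Contractile genes did not hold 1 direction, since the rho of *TAGLN* with *ID1* was 0.10 in PB-derived MSCs but −0.17 in BM- and −0.07 in AT-derived MSCs.

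A second view kept the counts that ranked the cells apart from the counts that were measured. Cells were grouped by the *ID1* UMIs among 2500 drawn UMIs (0, 1, 2, 3 to 4, or 5 and more), and levels were taken from the UMIs not drawn. The group with 5 or more held 423 AT-, 995 BM- and 187 PB-derived MSCs, and the group with 0 held 3176, 2481 and 3842. *ID1* itself, in UMIs not drawn, was at 120 CPM in the lowest and 2281 CPM in the highest group of AT-derived MSCs. In BM-derived MSCs these levels were 148 and 2631 CPM, and in PB-derived MSCs 77.3 and 2354 CPM. The groups are cut at the same counts in each source, which keeps these levels close, and what differed was the share of cells in the highest group, with 17.8% of BM-, 7.83% of AT- and 3.52% of PB-derived MSCs.

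**Figure D4:**
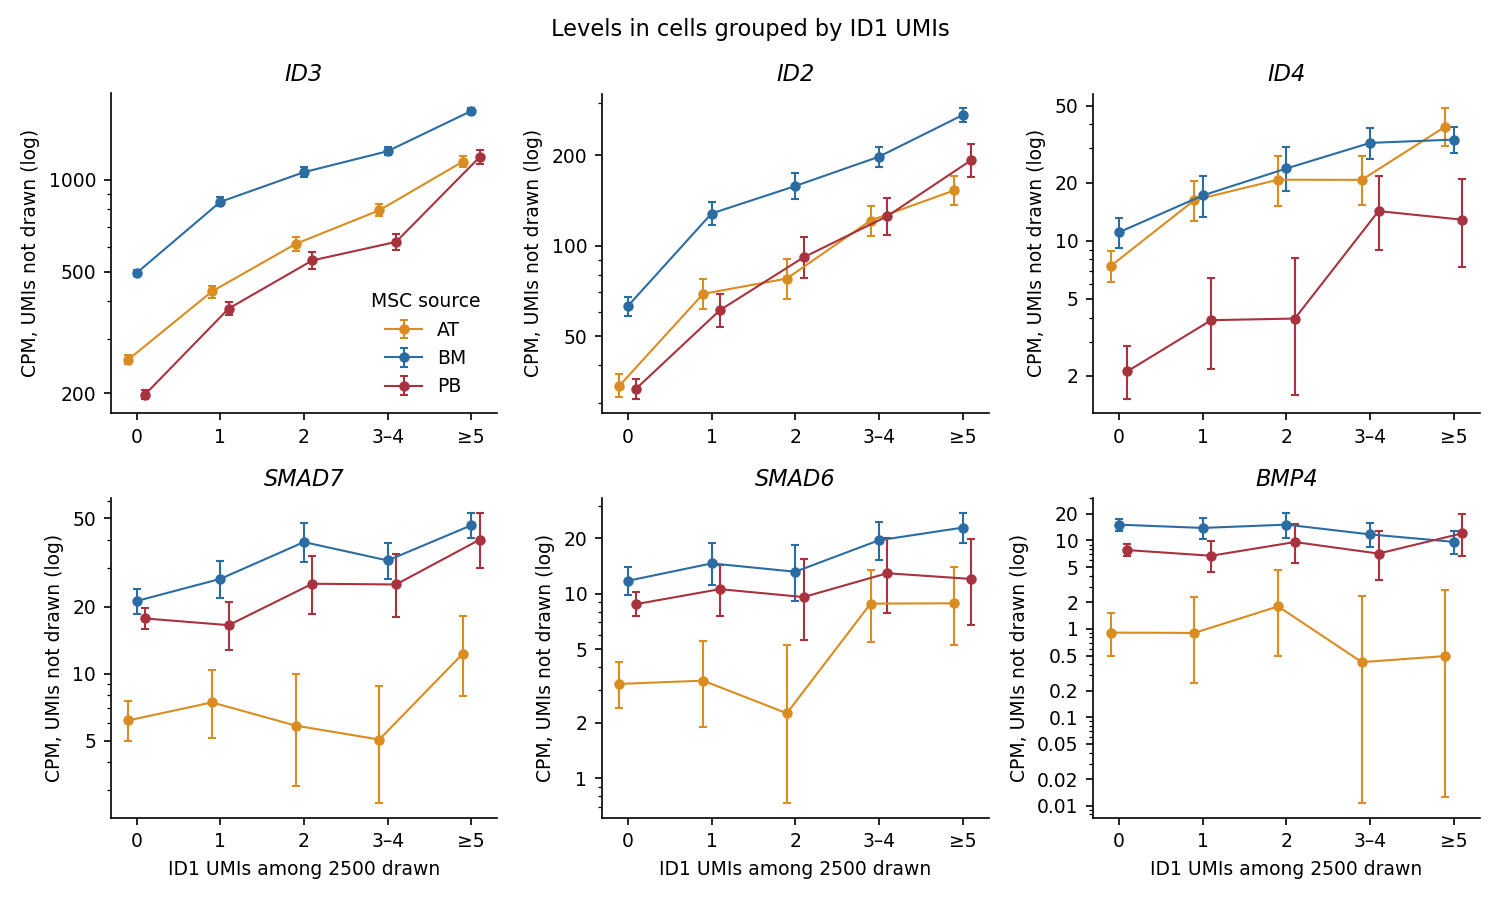
CPM of 6 genes (log axes, which differ between panels) in cells grouped by *ID1* UMIs among 2500 drawn UMIs, measured in the UMIs not drawn, for AT-, BM- and PB-derived MSCs with 95% Poisson bars. *ID3*, *ID2* and *ID4* rise with *ID1* in every source, *SMAD7* rises less, and *BMP4* falls from 15.1 to 9.65 CPM in BM-derived MSCs.

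*ID3* rose at every step in all 3 sources. In AT-derived MSCs it went from 258 CPM over 431, 616 and 793 CPM to 1146 CPM. In BM-derived MSCs the levels were 495, 845, 1057, 1238 and 1677 CPM, and in PB-derived MSCs 198, 379, 544, 625 and 1185 CPM. *ID2* rose at every step as well, from 34.2 to 153 CPM in AT-, from 62.9 to 272 CPM in BM- and from 33.4 to 193 CPM in PB-derived MSCs. *ID4* went from 7.40 to 39.0 CPM in AT-, from 11.1 to 33.4 CPM in BM- and from 2.11 to 12.8 CPM in PB-derived MSCs, the last on 16 UMIs in the highest group. In each group BM-derived MSCs had the most *ID3* and *ID2*, with intervals apart from those of the other sources, but their *ID1* in UMIs not drawn was also the highest in the lowest and in the highest group.

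The inhibitory SMADs rose with *ID1* too, although their rank correlations with it across cells were 0.03 to 0.08. *SMAD7* went from 6.16 to 12.3 CPM in AT-, from 21.2 to 46.6 CPM in BM- and from 17.7 to 40.1 CPM in PB-derived MSCs, with intervals apart in each source. Among G1 cells alone its rank correlation with *ID1* was 0.043 in AT- and 0.088 in BM- but 0.005 in PB-derived MSCs. *SMAD6* went from 3.24 to 8.88 CPM in AT- and from 11.8 to 22.9 CPM in BM-derived MSCs, whereas in PB-derived MSCs it was at 8.80 and 12 CPM with overlapping intervals. *BMP4* did not rise: it fell from 15.1 CPM (172 UMIs) to 9.65 CPM (46 UMIs) in BM-derived MSCs, and its intervals overlapped between the end groups in AT- and PB-derived MSCs. *BMP2* intervals overlapped in all 3 sources. *GREM1* went from 1.61 CPM to 7.22 CPM in PB-derived MSCs, the latter on 9 UMIs, and showed no such step in AT- or BM-derived MSCs.

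Set against all genes, the ranks of the ID genes were highest in AT-derived MSCs. By the log2 difference between the highest and the lowest group, *ID4*, *ID3* and *ID2* ranked 2, 3 and 4 of 8426 genes in AT-derived MSCs after *ID1* itself, with *SMAD6* at 13 and *SMAD7* at 48, and 0.368% of all genes were at least 2-fold higher. In BM-derived MSCs, where 1.66% of all genes were at least 2-fold higher, *ID2*, *ID3* and *ID4* ranked 14, 22 and 29. There *SMAD7* ranked 111 and *SMAD6* 183. In PB-derived MSCs, where 5.61% were, *ID3*, *ID2* and *ID4* ranked 74, 79 and 117, with *SMAD7* at 373 and *SMAD6* at 2137. Of the 6 other members with at least 5 CPM, 4 were at least 2-fold higher in each source. These were *ID2*, *ID3*, *ID4* and *SMAD6* in AT-, and *ID2*, *ID3*, *ID4* and *SMAD7* in BM- and PB-derived MSCs. Nothing is read from these ranks and counts, because joint movement across these same cells helped to choose the genes.

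*HEY1* and *SKIL*, which are not among the 10 genes, were also higher in the highest *ID1* group of each source, with intervals apart. *HEY1* went from 3.31 to 8.88 CPM in AT-, from 7.99 to 26.9 CPM in BM- and from 16.4 to 40.1 CPM in PB-derived MSCs. *SKIL*, a repressor of SMAD activity, went from 14.5 to 33.1, from 9.75 to 27.5 and from 17.2 to 36.9 CPM. Of 11 responsive genes on the list besides *ID1*, 5 are among the 10 genes described here, whose joint movement chose them. Of the other 6, *HEY1* alone passed 2-fold in AT-derived MSCs, *HEY1*, *HES1* and *MSX1* did in BM-derived MSCs, and *HEY1* and *MSX1* did in PB-derived MSCs, on the log2(CPM + 1) scale. None of 8 receptor genes was at least 2-fold higher in any source, and 1, *ACVR2A*, was lower in PB-derived MSCs, at 5.03 CPM in the lowest and 1.61 CPM (2 UMIs) in the highest group with overlapping intervals.

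Cell cycle and depth moved with the groups in PB-derived MSCs. The share of cells called S or G2M was 36.3% in the lowest and 72.2% in the highest *ID1* group there, and the median depth rose from 7658 to 9111 UMIs. In AT-derived MSCs the share was 38.4% and 44.0% with a depth of 7256 and 7189 UMIs, and in BM-derived MSCs 27.2% and 42.3% with 6797 and 6808 UMIs. Among cells called G1 alone, *ID3* still went from 250 to 1246 CPM in AT-, from 500.1 to 1800.1 CPM in BM- and from 190 to 884 CPM in PB-derived MSCs, the last in 52 cells. The endothelial markers summed to 2, 10 and 1 UMIs in the highest group of AT-, BM- and PB-derived MSCs, and the haematopoietic markers to 0, 1 and 0 UMIs. Smooth muscle and pericyte markers summed to 386 CPM in the lowest and 172 CPM in the highest group of AT-derived MSCs, to 219 and 185 CPM in BM-derived MSCs, and in the opposite direction to 52.5 and 111 CPM in PB-derived MSCs. In BM- and PB-derived MSCs these sums follow *CNN1* (189 and 142 CPM, and 28.5 and 86.7 CPM), and in BM-derived MSCs *DES* went the other way, at 1.76 and 10.1 CPM. Osteoblast markers summed to 443 CPM in the lowest and 220 CPM in the highest group of PB-derived MSCs, to 172 and 159 CPM in BM-derived MSCs and to 14.7 and 15.3 CPM in AT-derived MSCs. The PB sum follows *ALPL* (360 and 172 CPM) and *IFITM5* (40.8 and 4.82 CPM), while *SP7* was at 31.5 and 33.7 CPM. In BM-derived MSCs *ALPL* (100 and 80.8 CPM) and *IFITM5* (14.7 and 6.71 CPM) were lower, whereas *SP7* was higher, at 15.8 and 30.6 CPM. The part of these markers in the rise of the ID genes was not tested.

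Clusters were rebuilt within each source with the settings of the study but a later version of the software, which gave 8 each in BM- and PB-derived MSCs and 7 in AT-derived MSCs. These clusters are not those of the study and differ from them in number in BM- and PB-derived MSCs. In each source 1 cluster held the highest *ID1* level, but these clusters were not of 1 kind. In AT-derived MSCs it had 414 cells, 33.8% of them called S or G2M, and *ID1* was at 2312 CPM, against 333 CPM in the other cells and 631 CPM in the next cluster. In BM-derived MSCs it had 652 cells, 90.2% of them called S or G2M, with *ID1* at 1723 CPM against 744 CPM in the other cells. In PB-derived MSCs it had 393 cells, 94.7% of them called S or G2M, with *ID1* at 1249 CPM against 193 CPM in the other cells and a median depth of 10861 UMIs. These levels are descriptions, because the clustering drew on the UMIs of the genes described.

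The AT cluster was led by the family itself. Leading genes of a cluster were ranked by the log2 difference from the other cells with 25 CPM added to each level, which favours high genes. Here they were *ID1*, *ID3*, *ID2* and *ID4*, followed by *SNAI1*, *SERTAD1*, *DKK1*, *RASL11A*, *SPON2* and *PRRX2*. By plain fold *ID4* (3.56) came before *ID3* (3.51) and *ID2* (3.37). In it *ID3* was at 1274 CPM, *ID2* at 174 CPM, *ID4* at 41.2 CPM and *SMAD6* at 9.81 CPM, the highest of the 7 clusters for each. When clusters were built from a random part of the UMIs, the ID genes again shared their highest cluster. *SMAD6* was then highest in another cluster, at 6.44 CPM. The median depth of the high *ID1* cluster, 7289 UMIs, lay beside 7291 UMIs for the source. When the genes described here and those of the 5 BMP lists were left out of the variable genes, which left 2981 of 3000, the cluster was lost: its cells went to all 7 new clusters, with 44.9% in the largest part, and they made up 0.505% to 15% of the cells of each. The highest new cluster had *ID1* at 666 CPM, only 1.47-fold above the other cells. Without these genes the cells of the high *ID1* cluster were thus found in every AT cluster, but unevenly, from 0.483% to 44.9% of them. Within the new AT clusters the rho of *ID1* with *ID3* was 0.317 to 0.543.

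**Figure D5:**
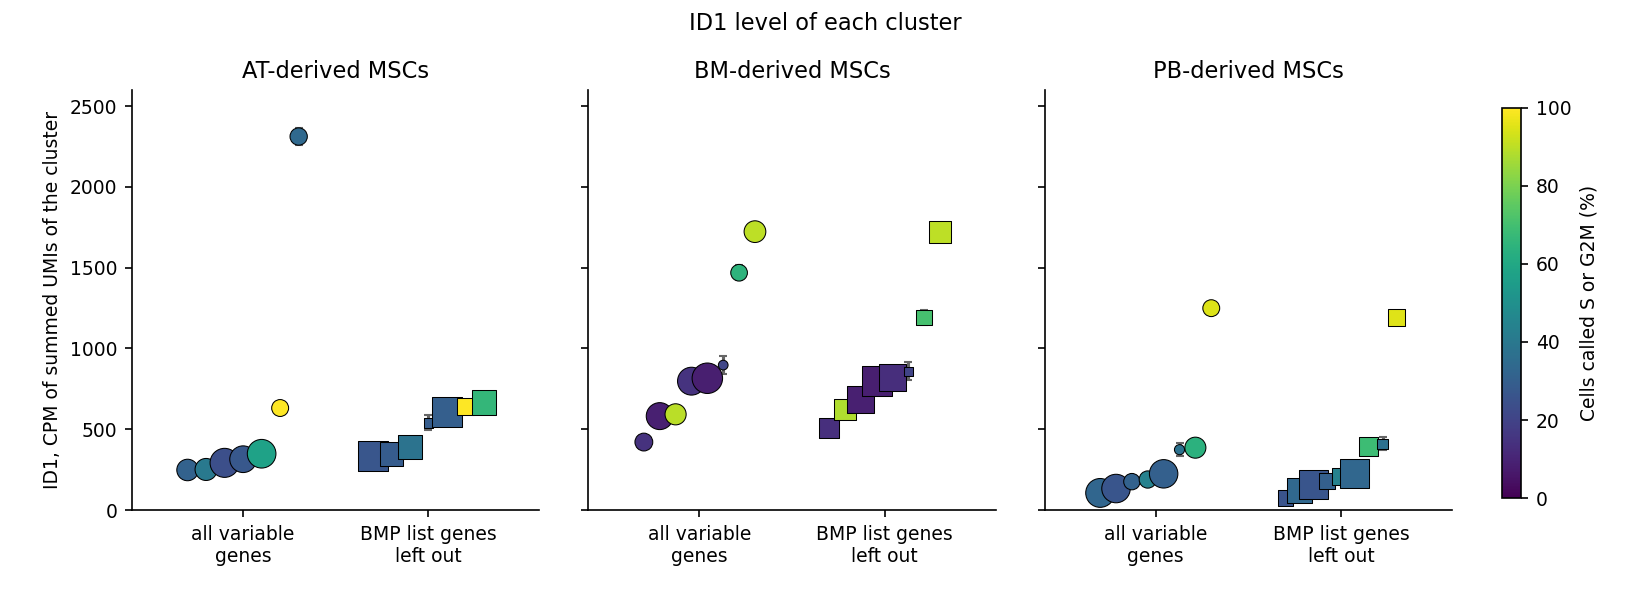
*ID1* level (CPM of summed UMIs) of each cluster of AT-, BM- and PB-derived MSCs, clustered with all variable genes (circles) or with the genes of the BMP lists left out (squares); size follows the number of cells, colour the percentage called S or G2M, and bars are 95% Poisson intervals. The AT cluster at 2312 CPM is absent on the right, where the highest is at 666 CPM, while the highest BM (1723 and 1722 CPM) and PB (1249 and 1194 CPM) clusters remain.

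The highest clusters of the other sources did not depend on these genes. Of the 652 cells in BM-derived MSCs, 649 were again in 1 cluster when the BMP genes were left out, and of the 393 cells in PB-derived MSCs 379 were. The BM cluster was led by ENSECAG00000008818, ENSECAG00000031731 and *CALCA*, and it combined the highest *ID1* and *ID4* (53.6 CPM) with the lowest *BMP4* (3.90 CPM), *BMP2* (1.79 CPM) and *BAMBI* (0.487 CPM) of the 8 clusters. Another BM cluster with as many cycling cells by these calls, of 616 cells with 89.8% in S or G2M, had *ID1* at 592 CPM and the highest *BMP4* of the source, 27.2 CPM. The PB cluster had ENSECAG00000026891, *CKS2* and *UBE2C* among its leading genes, and it also held the highest *SMAD6* (21.0 CPM), *SMAD7* (30.7 CPM) and *GREM1* (8.93 CPM, against 1.39 CPM in the other cells) of the 8 clusters.

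*BAMBI* and the ligands had their own places in BM-derived MSCs. *BAMBI* was at 14.7 CPM in the largest cluster (1283 cells) and at 2.35 CPM in the other cells. *BMP2* ran from 1.79 to 13.1 CPM and *BMP4* from 3.90 to 27.2 CPM over the 8 clusters, and the cluster highest in *BMP2* had *BMP4* at 5.95 CPM, the second lowest of the source. *ID3* was less uneven, at 557 to 1358 CPM. The correlation of *ID1* with *ID3* was also present within clusters, with a rho of 0.134 to 0.330 over the 7 AT clusters, 0.385 to 0.591 over the 8 BM clusters and 0.170 to 0.379 over the 8 PB clusters, and the lowest AT value was that of the cluster highest in *ID1*.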

How the data were processed

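MSCs of 1 mare were measured by droplet-based 3′ single-cell RNA sequencing, with 1 library for each of 3 sources. Per the deposited labels and the methods of the study, reads were processed with Cell Ranger against EquCab3.0 and UMI counts per gene were made by the authors with ESAT and an extended annotation. The deposited matrices hold whole-number UMI counts per gene and cell barcode, not normalized, of 29893 genes and 11757 barcodes (AT), 29901 and 6455 (BM) and 29882 and 6180 (PB). The authors removed putative multiplets from their downstream analyses with DoubletDetection, whether the deposited matrices still hold those barcodes is not given in the sources used here, and no doublet caller was applied in the main values. Multigene copies and overlapping genes were taken as the deposited rows give them.

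Barcodes were kept when they held between 2500 and 15000 UMIs with a chromosome MT share no higher than 3%, which gave 39980656 (AT), 40239295 (BM) and 41622445 (PB) UMIs, and 3 UMIs correspond to 0.0750, 0.0746 and 0.0721 CPM. Counts were summed per source and scaled to CPM, with 95% exact Poisson intervals for sums, exact Clopper-Pearson intervals for shares, and ratios with exact conditional intervals. With 1 library per source no count model was fitted and no p-value was computed. Correlations, shares at equal depth and *ID1* groups used 1 seeded thinning to 2500 UMIs per cell. Clusters and cell cycle calls came from R 4.3.3 with the packages sctransform 0.4.2 and Seurat 5.3.0 (3000 variable genes, 14, 23 and 20 principal components, resolution 0.6). TMM factors came from edgeR 4.0.16, and the other steps used Python 3.11.15, NumPy 2.4.6, SciPy 1.17.1 and Scanpy 1.11.5. The scripts were tested on simulated data with known differences and correlations.

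The 10 genes and all lists were chosen with earlier results of these data known. Named were the 10 genes, list genes with a mean of at least 5 CPM that passed 2-fold, and for each source the 5 genes with the highest and the 5 with the lowest rho with *ID1* among genes found in at least 25% of cells. Other genes named (receptors, SMADs and antagonists that differed little or were rare, markers and genes leading a cluster) were chosen after their values were seen. Alternatives were TMM factors, the mean of single-cell CPM, thinning, other pseudocounts, folds and filters on cells and genes, G1 cells only, other correlation measures and other cluster settings, and leaving out barcodes kept in more than 1 library was added after seeing the data. Sequences of promoters and proteins were not used here, and some genes that the naming rule selects are not reported here.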

Additional observations from a re-analysis of the deposited data

How the results depend on the processing

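The direction of the 30 differences between sources did not turn under TMM factors, means of single-cell CPM or removal of the cells with the highest Scrublet scores. Nor did it turn without the upper UMI limit, without the mitochondrial limit, or over all barcodes with at least 500 UMIs. A pseudocount of 25 CPM cannot turn a direction, since it is added to both levels. The direction turned for *ID4* in AT minus BM (0.13, with overlapping counting intervals) among G1 cells. It also turned for *GREM1* in BM minus PB among G1 cells and with thinned cells (0.35). The number of the 7 genes past 2-fold depended more on the settings. In AT against BM, 5 became 3 with TMM factors, 1 with a pseudocount of 25 CPM, 3 at a fold of 3 and 2 with a mean of at least 20 CPM. In AT against PB, 4 became 0 with a pseudocount of 25 CPM, 2 at a fold of 3 and 0 with a mean of at least 20 CPM. In BM against PB, 4 became 7 at a fold of 1.5 and 2 at a fold of 3. The correlation of *ID1* with *ID3* in AT-, BM- and PB-derived MSCs was 0.556, 0.60 and 0.460 as Pearson's r of log values, 0.706, 0.668 and 0.691 with the counting variance removed, and 0.160, 0.237 and 0.128 over all barcodes with at least 500 UMIs thinned to 500, and in PB-derived MSCs it was 0.433 as Pearson's r of thinned counts. The setting of 500 UMIs changed the cells and the depth together. The highest AT cluster was 6.94-fold above the other cells in *ID1*, 1.47-fold without the BMP genes and 2.13-fold at a resolution of 0.4. Leaving out kept barcodes listed in another library gave no value for PB-derived MSCs, since all 5318 were. No paired analysis was possible because each source had 1 library. Depth limits *BMP2*, *GREM1*, *BAMBI* and, in AT-derived MSCs, *BMP4*.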

Other observations

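The other members did not share 1 order of cell cycle phases. In BM-derived MSCs *BMP2* was at 9.30 CPM in G1, 6.74 CPM in S and 4.90 CPM in G2M, whereas *ID1* was highest in G2M there. *SMAD7*, the inhibitory SMAD with the broader range, was at 32.2, 27.6 and 26.8 CPM in BM-derived MSCs, and *SMAD6* was at 8.97, 9.99 and 14.2 CPM in PB-derived MSCs. The counting intervals of these *SMAD7* levels overlapped between all phases. For *BMP2* in BM- and *SMAD6* in PB-derived MSCs only those of G1 and G2M lay apart.

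Genes outside the members that are known to act with them also differed between cells with 5 or more and cells with 0 drawn *ID1* UMIs. In BM-derived MSCs the antagonist gene *NOG* was at 4.2 against 0.878 CPM, and the homeobox genes *MSX1* and *DLX5* were at 23.9 against 9.48 CPM and at 79.3 against 41.2 CPM. *MSX1* was also higher in PB-derived MSCs, at 150 against 71.5 CPM. *CHRDL1*, an antagonist gene with its highest level in AT-derived MSCs, was at 155 against 188 CPM there. In the AT cluster highest in *ID1*, *DKK1*, which codes for a secreted Wnt antagonist, was at 27.2 CPM against 9.89 CPM in the other cells, and *SNAI1* was at 52.7 CPM against 22.6 CPM. These genes were named after their values were seen, and none of the differences was tested.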
